A study of Mus musculus with 2 samples.

Results

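The cells described here are mononuclear phagocytes with high Mgl2 and detected Asgr2 transcripts, taken from mouse tumours grown from a mixture of squamous carcinoma lines. They were chosen by raw counts of unique molecular identifiers (UMIs, each standing for 1 captured transcript) in single cells. A member had at least 3 Mgl2 UMIs, at least 1 Asgr2 UMI and at least 1 UMI of Csf1r, the receptor for macrophage colony-stimulating factor. It had no UMI of Cd3e, a T cell gene, or of Flt3, a cytokine receptor of dendritic cells (DCs). It also had fewer than 3 UMIs of Fcna and Cbr2 together, genes of a further macrophage population, and fewer than 4 of the division genes Mki67 and Top2a together. This gate held 649 of 11552 cells, 317 of 4818 in replicate 1 and 332 of 6734 in replicate 3. The members were thus chosen from measured values, and levels of the genes in the gate, and of Dcstamp, which was given as a marker of these cells, are descriptions without a test.

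Both samples belong to 1 group. Each is a subcutaneous tumour of an FVB mouse grown from a joint injection of 2 carcinoma lines, CIT6 marked with YFP and CIT9 marked with RFP, and no treatment is labelled. Live sections were printed with light-directed oligonucleotide codes that mark regions (ZipSeq), digested with collagenases and sorted for CD45, a leukocyte surface protein, before droplet 3' sequencing. Replicate 1 carries the codes ZC1, ZC2 and ZC5 and replicate 3 carries ZC1, ZC5 and ZC6, and the labels used here do not say which region each code marks. Nor do they state that each tumour grew in an animal of its own. With the tumour as a block in the fit, p-values measure only how class differences vary between these 2 samples, pooled over all classes fitted. That variation may be technical.

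Mgl2 (CD301b) is a C-type lectin of macrophages and DCs that binds glycans ending in galactose or N-acetylgalactosamine. Asgr2 encodes a subunit of the asialoglycoprotein receptor, a related lectin best known from liver cells. Dcstamp encodes a membrane protein needed for the fusion of precursors into osteoclasts and giant cells. In skin, Mgl2 is known from dermal macrophages and from a population of type 2 conventional DCs, so markers of both were examined.

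All 12 macrophage markers (such as C1qa, Apoe, Mrc1 and Fcgr1) were detected in at least 10% of members in each tumour. Their summed level was 37759 and 26597 CPM (the UMIs of a gene scaled to a class total of 1000000; the first value is replicate 1 and the second replicate 3), against 44684 and 29673 CPM in other phagocytes. Type 2 conventional DC markers summed to 784 and 682 CPM in members, 408 and 289 CPM in other phagocytes and 2496 and 2134 CPM in cells with Cd209a and Flt3. Among the 11 markers of that list, Flt3 was at 0 by the gate, and Zbtb46, a transcription factor of conventional DCs, was at 1.66 and 1.53 CPM in members. Plasmacytoid DC, T cell, NK cell and mast cell markers summed to at most 9.3 CPM in members of either tumour. Monocyte markers summed to 995 and 2066 CPM in members and 906 and 2985 CPM in other phagocytes. Type 1 conventional DC markers summed to 98.1 and 80.2 CPM against 102 and 72.6 CPM, and activated DC markers to 31.7 and 44.5 CPM against 22.4 and 14.6 CPM. Tumour and stromal markers summed to 98.0 and 50.3 CPM in members, with the keratin genes Krt5 and Krt14 at 0. The part of these other markers in the results was not tested. The cells are called Mgl2 Asgr2 phagocytes here.

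Mgl2 reached 698 and 520 CPM in members, against 168 and 62.2 CPM in other phagocytes. Asgr2 reached 178 and 254 CPM, against 3.36 and 7.98 CPM. Dcstamp reached 113 and 106 CPM, against 33.5 and 18.1 CPM. Every one of these levels was higher in the members of both tumours, as the choice of cells fixes for Mgl2 and Asgr2. In T cells, which should lack these genes, Mgl2 stood at 2.15 and 1.68 CPM, Asgr2 at 0 and 0.336 CPM and Dcstamp at 1.61 and 0.841 CPM. Dcstamp had a UMI in 52.4% and 56.6% of members (median depth 21877 and 26089.5 UMIs per cell), in 17.4% and 13.4% of other phagocytes (16463.5 and 20950.5 UMIs) and in 0.299% and 0.697% of T cells (4351 and 6517 UMIs). After thinning every cell to 5000 UMIs the shares for Dcstamp were 32.2% and 30.4% of members and 9.84% and 5.46% of other phagocytes. Mgl2 was also high in the cells with Cd209a and Flt3, at 670 and 250 CPM, the first a level near that of members in replicate 1.

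**Figure D1:**
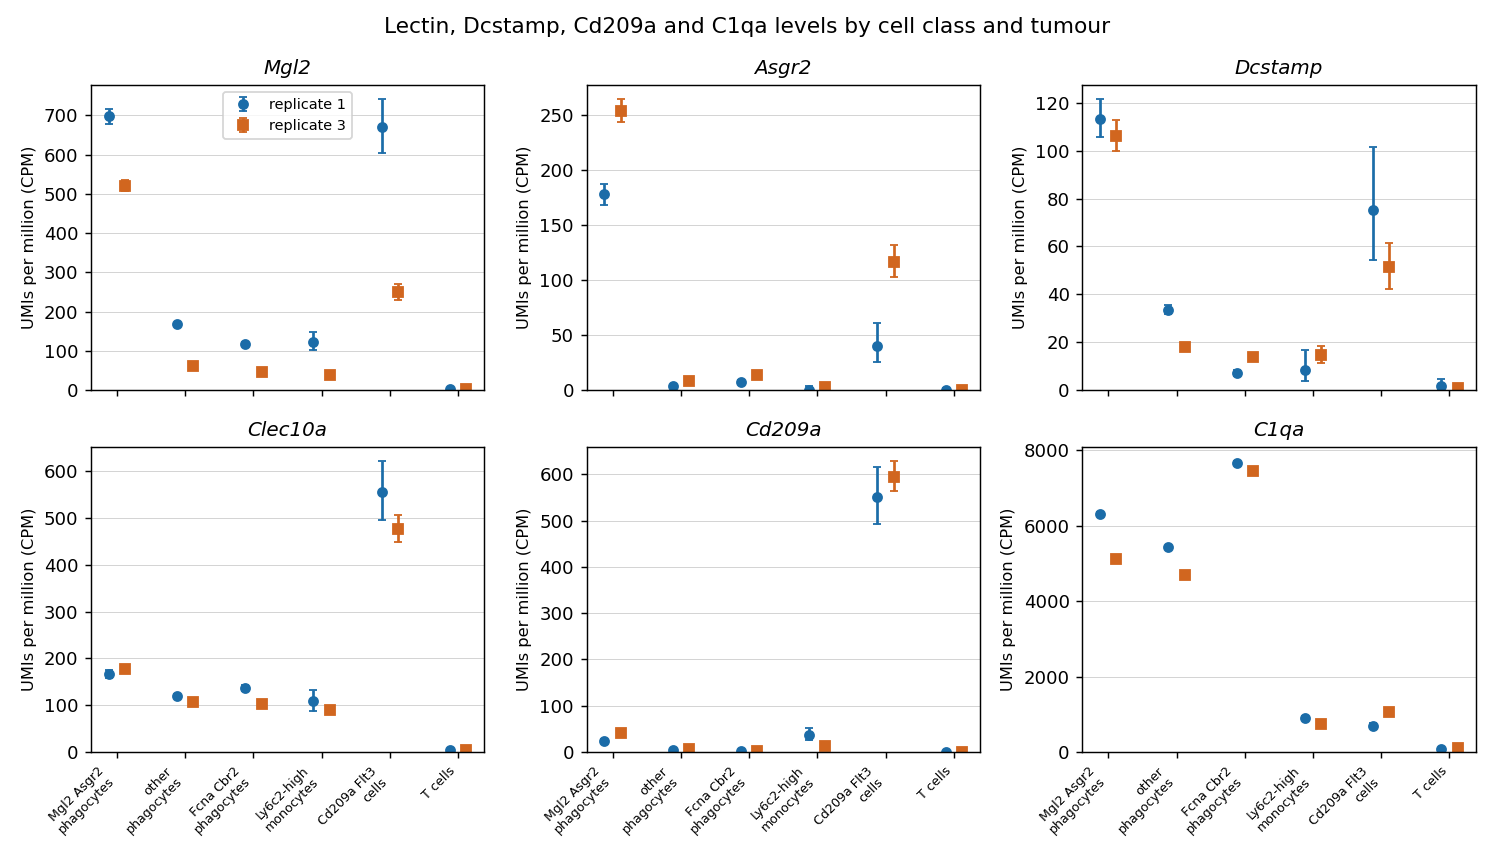
Levels of 6 genes in CPM (y axis, linear from 0) by cell class (x axis). Circles are replicate 1, squares replicate 3, and bars exact 95% Poisson intervals, which cover counting error only. Asgr2 is at 178 and 254 CPM in Mgl2 Asgr2 phagocytes and at 40.3 and 116 CPM in cells with Cd209a and Flt3, while C1qa is high in the members and low in those cells.

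The lectin genes that define these cells are neighbours on mouse chromosome 11 (GRCm38.p6, the mm10 build, positions from RefSeq). Asgr1, Asgr2, Mgl2 and Clec10a, the last encoding the sister lectin MGL1, lie within 121928 bases in that order. Asgr2 spans chr11:70092644-70106187 and Mgl2 spans chr11:70130125-70137542, with 23937 bases between them. The annotated pseudogene Gm12311 overlaps Mgl2 at chr11:70128969-70133805, and reads from either cannot be told apart by position where they share a strand. Within the cluster the levels differed by gene: Asgr1 had no UMI in any member (at most 3 counts allow up to 0.414 and 0.307 CPM), and Clec10a stood at 166 and 179 CPM. Clec10a was detected at 119 and 108 CPM in other phagocytes and 557 and 476 CPM in cells with Cd209a and Flt3. The 250 bases before the transcript starts that the RefSeq promoter table uses for Mgl2 and Asgr2 (GRCm38.p6, plus strand) are shown because these 2 genes define the cells, with CCAAT, the box bound by the factor NF-Y, in capitals on either strand (ATTGG on the strand shown). For Asgr2 that start is the start of the gene's span, while for Mgl2 it lies inside the span given above. Mgl2 holds the box 129 and 57 bases before the start used and Asgr2 does not hold it in this window, and 33.8% of all 32851 promoter windows of this length hold it.
Mgl2, chr11:70130107-70130356: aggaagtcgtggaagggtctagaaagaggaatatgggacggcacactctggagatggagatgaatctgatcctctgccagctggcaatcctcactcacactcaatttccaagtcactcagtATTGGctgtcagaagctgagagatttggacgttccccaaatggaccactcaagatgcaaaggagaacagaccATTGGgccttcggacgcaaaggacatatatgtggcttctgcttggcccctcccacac
Asgr2, chr11:70092394-70092643: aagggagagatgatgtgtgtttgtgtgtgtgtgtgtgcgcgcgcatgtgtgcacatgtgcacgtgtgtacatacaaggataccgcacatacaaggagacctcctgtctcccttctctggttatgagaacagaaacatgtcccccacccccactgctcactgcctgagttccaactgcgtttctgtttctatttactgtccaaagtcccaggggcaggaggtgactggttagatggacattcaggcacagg

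Replicate 1 held 89040909 gene UMIs and replicate 3 held 170328781, with medians of 16798 and 21345.5 UMIs per cell. The libraries shared 9 cell barcodes. Members were deeper than other phagocytes in both tumours, and a gate on raw UMIs favours deep cells. Scrublet's own threshold marked 0 doublets and was taken as not having worked. A set of the highest doublet scores held 5 and 9 members. Replicate 1 stood apart in the neutrophil genes S100a8 and S100a9, at 400 and 483 CPM in its members and 0.716 and 0.511 CPM in those of replicate 3. In its other phagocytes they stood at 1042 and 1144 CPM, and their part in the results below was not tested.

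Members made up 6.58% of called cells in replicate 1 (exact binomial 95% interval 5.90 to 7.32) and 4.93% in replicate 3 (4.43 to 5.47), a mean of 5.75% ± 1.17 (SD, n = 2). Of the phagocytes that passed every gate but that on Mgl2 and Asgr2 they were 12.6% (11.3 to 13.9) and 9.41% (8.47 to 10.4). With the gate applied after thinning to 5000 UMIs the 2 tumours held 74 and 75 members, a mean of 1.55% of called cells, so the share depends on depth. Requiring 5 Mgl2 and 2 Asgr2 UMIs left a mean of 2.52%.

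The gate had near neighbours on each side. The 29 and 27 members with exactly 3 Mgl2 UMIs had 127 and 43.9 CPM of Dcstamp, and the 18 and 26 cells just outside, with 2 Mgl2 UMIs and Asgr2 detected, had 121 and 36.8 CPM. Cells with enough Mgl2 but no Asgr2 UMI outnumbered the members (582 and 431 cells) and had 50.3 and 36.6 CPM of Dcstamp. Of cells that failed a single other gate, 24 and 64 failed for Mki67 and Top2a, 38 and 29 for Fcna and Cbr2, 12 and 20 for Flt3, 13 and 11 for Cd3e and none for Csf1r. Levels of Dcstamp on either side of the Mgl2 threshold were thus close to each other.

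Within the members, cells with more Mgl2 had less Apoe, which encodes the lipid carrier apolipoprotein E, and less Folr2, the folate receptor of resident macrophages. Apoe stood at 28796 and 22667 CPM in members with 3 or 4 Mgl2 UMIs (49 and 56 cells) and at 16515 and 7114 CPM in those with at least 10 (187 and 180 cells). Folr2 stood at 35.2 and 32.0 CPM in the first bin and at 9.42 and 3.02 CPM in the last. Ccr2, the chemokine receptor by which monocytes leave the marrow, stood at 278 and 471 CPM against 502 and 589 CPM. The first and last bins differed in the same direction in both tumours for each of these 3 genes. The middle bin had 283 and 455 CPM of Ccr2, which in replicate 3 was below the first bin. Asgr2 was also higher in the last bin than in the first, going from 94.3 and 125 CPM to 225 and 313 CPM. H2-Aa, a chain of the MHC class II molecule, was higher in the last bin as well (11224 and 13053 CPM against 14018 and 14147 CPM). Phagocytes with neither Mgl2 nor Asgr2 stood at 3612 and 5096 CPM of H2-Aa. Median depth was higher too, going from 18028 and 23799.5 UMIs per cell in the first bin to 23260 and 27856.5 in the last.

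**Figure D2:**
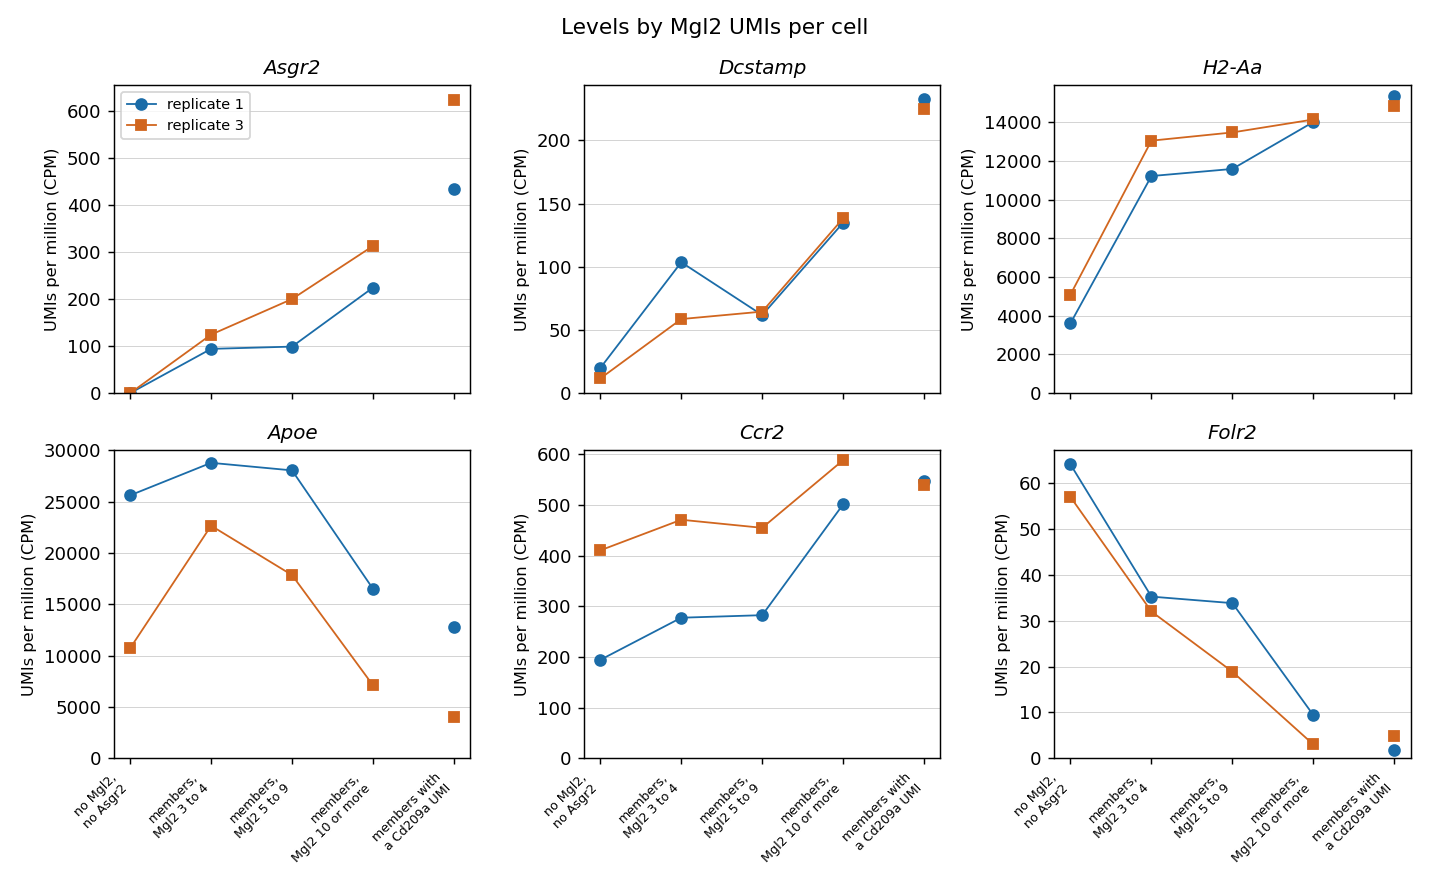
Levels of 6 genes in CPM (y axis, linear from 0) in phagocytes without Mgl2 and Asgr2, in members by their Mgl2 UMIs, and in members with a Cd209a UMI (x axis, the last point overlapping the bins). Circles are replicate 1 and squares replicate 3. Apoe and Folr2 are lowest in members rich in Mgl2 or Cd209a, while H2-Aa is higher in each bin of members than in phagocytes without Mgl2 and Asgr2.

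A minority of members carried Cd209a, a lectin gene of type 2 conventional DCs and monocyte-derived cells. It had a UMI in 14.8% and 12.3% of members (47 and 41 cells) and in 1.82% and 1.80% of other phagocytes. No T cell of replicate 1 and 0.558% of those of replicate 3 had a Cd209a UMI. Members with it had 434 and 625 CPM of Asgr2, and members without it 134 and 200 CPM. Dcstamp stood at 233 and 225 CPM with Cd209a and at 93.3 and 89.0 CPM without. C1qa, a complement gene of macrophages, stood at 4579 and 3170 CPM with Cd209a and 6611 and 5397 CPM without. The Cd209a-positive members were thus higher in Asgr2 and in Dcstamp, and lower in C1qa, in both tumours. The split by Cd209a was made after the data were seen, and counts of calls against other phagocytes are given with and without these cells.

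Against all other phagocytes of the same gate (2140 and 2884 cells with Csf1r and without high Fcna, Cbr2 or Ly6c2), members had more transcripts of 6 of 14 MHC class II presentation genes and of the chemokine gene Ccl17. They had fewer of 3 of 19 fusion and osteoclast genes and of 4 of 26 matrix and coagulation genes. None of these calls held without the tumour as a block. UMIs were summed per tumour and class and tested with edgeR's quasi-likelihood test with the tumour as a block and Benjamini-Hochberg adjustment over 11871 genes. At an adjusted p of 0.05, 156 genes were higher in members (1.31% of genes tested) and 120 lower (1.01%), together 2.32%. Without the block edgeR called 0 genes, with 448 at an unadjusted p under 0.05, while DESeq2 with the block called 213 higher and 131 lower. Leaving out members with a Cd209a UMI left 55 higher and 56 lower, all of them among the 276. Subtracting a free RNA profile from every sum left 63 and 51. Of 57 called genes of this comparison that were followed singly, 33 lost their call under that subtraction. The genes tested were not in the gate, but they can vary together with those that were, and the gate follows a cluster seen earlier in these cells.

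Ccl17, which encodes a ligand of the chemokine receptor CCR4, stood at 60.7 and 105 CPM in members and at 3.70 and 3.47 CPM in other phagocytes. Both tumours had far more in members, without overlap (log2 fold change 4.55 ± 0.45 SE, adjusted p = 0.00309 by edgeR). Few cells carried it: 32 of 317 and 52 of 332 members had a UMI, and the 5 highest cells held 74.3% and 66.6% of all Ccl17 UMIs. In members without a Cd209a UMI it stood at 39.8 and 54.5 CPM, and in those with one at 185 and 454 CPM. The fold change was 3.76 (log2) without the Cd209a-positive members (adjusted p = 0.009 by edgeR). The 250 bases before the transcript start used in the RefSeq promoter table (GRCm38.p6, plus strand), which lies inside the gene's annotated span, are shown because Ccl17 had the largest difference of the named genes. Capitals mark the palindromic STAT motif, TTC and GAA with 3 or with 4 bases between them, searched on both strands. The matches start 99 and 154 bases before the start used, and 12.4% of windows of this length hold either form.
Ccl17, chr8:94810203-94810452: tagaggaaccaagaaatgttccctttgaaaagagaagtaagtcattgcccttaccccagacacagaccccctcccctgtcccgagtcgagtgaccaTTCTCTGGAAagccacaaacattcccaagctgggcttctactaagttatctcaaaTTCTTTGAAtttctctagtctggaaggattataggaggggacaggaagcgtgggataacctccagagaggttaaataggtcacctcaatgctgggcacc

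Klrb1b, an inhibitory C-type lectin-like receptor best known from NK cells, stood at 77.8 and 64.2 CPM in members and 28.6 and 12.6 CPM in other phagocytes (log2 1.93 ± 0.19, adjusted p = 0.00309 by edgeR). Its UMIs were spread over 61.8% and 62.7% of members. NK cell markers summed to 4.83 and 6.24 CPM in members, and their part in the Klrb1b difference was not tested. Il1r2, the decoy receptor for interleukin-1, stood at 192 and 129 CPM against 92.8 and 27.0 CPM (log2 1.63 ± 0.34, adjusted p = 0.0412). Itgax, the integrin chain CD11c of DCs and some macrophages, stood at 108 and 73.6 CPM against 50.2 and 28.8 CPM (log2 1.27 ± 0.25, adjusted p = 0.0345). The Ly6a gene, which encodes the surface protein Sca-1, also differed between the tumours, at 132 and 390 CPM in members against 43.9 and 229 CPM. For Klrb1b, Il1r2 and Itgax the members of each tumour lay above the other phagocytes of both tumours, and for Ly6a only within a tumour. Without the Cd209a-positive members Klrb1b was still called (adjusted p = 0.006), while Il1r2 (0.162), Itgax (0.081) and Ly6a (0.059) were not. The other genes with large increases were Plxdc2, AA467197, the adhesion receptor gene Adgrg5 and Ccnd2, which encodes cyclin D2, with log2 fold changes of 1.69, 1.67, 1.41 and 1.12.

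Among the 10 genes named for large decreases, F13a1, which encodes the A chain of coagulation factor XIII, stood at 39.5 and 13.5 CPM in members and 142 and 57.7 CPM in other phagocytes (log2 -1.92 ± 0.13, adjusted p = 0.000842 by edgeR). Folr2 stood at 18.6 and 11.8 CPM against 57.7 and 53.4 CPM (log2 -1.86 ± 0.21, adjusted p = 0.00451). Clec4d, a lectin that pairs with Mincle to sense microbial glycolipids, stood at 41.9 and 22.5 CPM against 210 and 67.3 CPM (log2 -1.95 ± 0.32, adjusted p = 0.0179). All 3 genes were lower in the members of both tumours, and no member sum reached the lowest value of the other phagocytes. Thbs1, the matrix protein thrombospondin 1, fell by 1.77 on the log2 scale, and Acp5, the tartrate-resistant phosphatase of osteoclasts and macrophages, by 1.14. Serpinb6a, Syngr1, Adam8 and Gpr137b fell by 1.78, 1.38, 1.29 and 1.12, and Pmp22 fell as well. Both classes passed the same gate on Fcna and Cbr2. Neutrophil markers, which moved with Clec4d, summed to 964 and 19.0 CPM in members and 2370 and 78.3 CPM in other phagocytes, and their part in its difference was not tested.

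**Figure D3:**
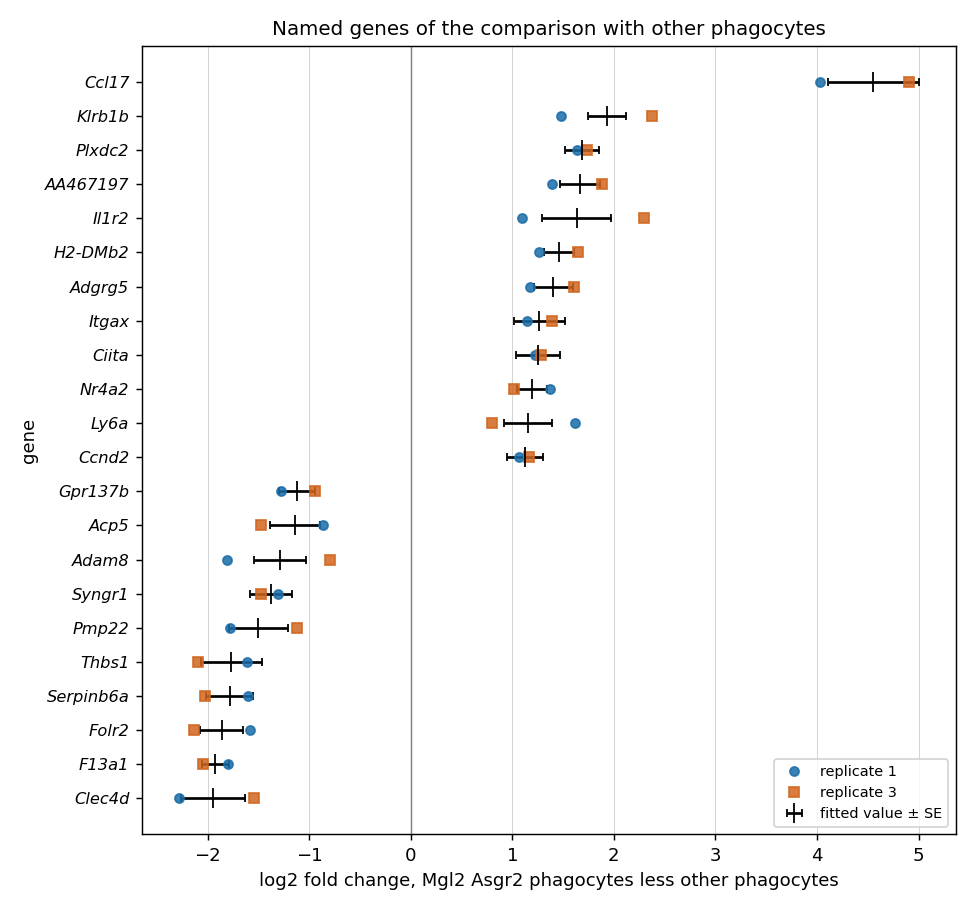
Log2 fold changes (x axis) of the 22 genes with the largest changes (y axis) between Mgl2 Asgr2 phagocytes and other phagocytes. Circles are replicate 1, squares replicate 3, and the bar with whiskers is the fitted value ± SE; Ccl17 stands apart at 4.55, and each gene lies on the same side of 0 in both tumours.

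MHC class II molecules present peptides to CD4 T cells. The accessory proteins H2-DM and H2-O load and edit the peptides, Cd74 guides the complex, and Ciita switches the genes on together. Of 14 genes of this list, 6 rose in members (H2-Oa, H2-DMb2, Ciita, H2-Ob, H2-DMb1 and H2-DMa) and none fell by the test. The list's median log2 fold change was 0.95, beside -0.03 over all genes tested. H2-DMb2 stood at 381 and 253 CPM in members against 163 and 82.5 CPM in other phagocytes (log2 1.46 ± 0.15, adjusted p = 0.0034 by edgeR). Ciita stood at 159 and 127 CPM against 70.0 and 53.4 CPM (log2 1.25 ± 0.21, adjusted p = 0.0195). Members lay above the other phagocytes without overlap for both genes. H2-Oa stood at 20.4 and 20.3 CPM against 8.03 and 5.56 CPM (log2 1.67 ± 0.28, adjusted p = 0.0183). The abundant chains did not pass the test. H2-Aa stood at 13071 and 13798 CPM against 6726 and 7608 CPM (log2 0.95 ± 0.28, adjusted p = 0.133), and Cd74 at 31865 and 39136 CPM against 17841 and 22377 CPM (log2 0.86 ± 0.24, adjusted p = 0.113). The classes did not overlap for these 2 genes, but 2 sums a side can lie apart without a difference. Cells with enough Mgl2 but no Asgr2 UMI (582 and 431 cells) stood near the members, at 11017 and 13107 CPM of H2-Aa. Their Cd74 stood at 27548 and 36976 CPM, so high levels of these 2 genes were not particular to the members.

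Without the Cd209a-positive members 3 of the 14 were called (H2-DMb2, H2-DMb1 and Ciita) with a median of 0.89, and after free RNA subtraction 2 were called with a median of 1.00. In members without a Cd209a UMI, H2-DMb2 stood at 356 and 221 CPM and H2-Oa at 13.9 and 10.6 CPM. With 1 they stood at 526 and 469 CPM and at 59.4 and 87.6 CPM. H2-Oa in particular was thus higher in the Cd209a-positive minority. Against other phagocytes with neither Mgl2 nor Asgr2, 10 of 14 were called with a median of 1.59, beside 515 of all 11933 genes tested. Those cells were chosen by the absence of gate genes, which vary together with class II genes, so the larger difference is no separate support. They were also shallower than members, with medians of 14677 and 20069 UMIs per cell. B cells also express these genes. The 6 B cell markers summed to 47.3 and 86.0 CPM in members and 33.7 and 93.3 CPM in other phagocytes, with 2 of them detected in at least 10% of members and Cd79a at 0 and 0.204 CPM. Their part in the difference was not tested.

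The class II genes are known to share promoter elements that include an inverted CCAAT box. Of the list, 10 genes matched the RefSeq promoter table and 9 of them held CCAAT on either strand in the 250 bases before a start in that table (Ctss did not), beside 37.5% of all 27025 genes in the table. The window of H2-DMb2 is shown as that of a gene that rose, with the same box in capitals. Its start in the table also lies inside the gene's annotated span.
H2-DMb2, chr17:34144999-34145248: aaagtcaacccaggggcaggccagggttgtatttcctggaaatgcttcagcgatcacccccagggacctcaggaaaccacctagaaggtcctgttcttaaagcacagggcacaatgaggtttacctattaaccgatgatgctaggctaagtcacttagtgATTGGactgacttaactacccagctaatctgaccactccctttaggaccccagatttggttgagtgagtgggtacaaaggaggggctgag
The box lies 90 bases before the start used, and like the box in Mgl2 it is a match of letters, not a measured site.

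**Figure D4:**
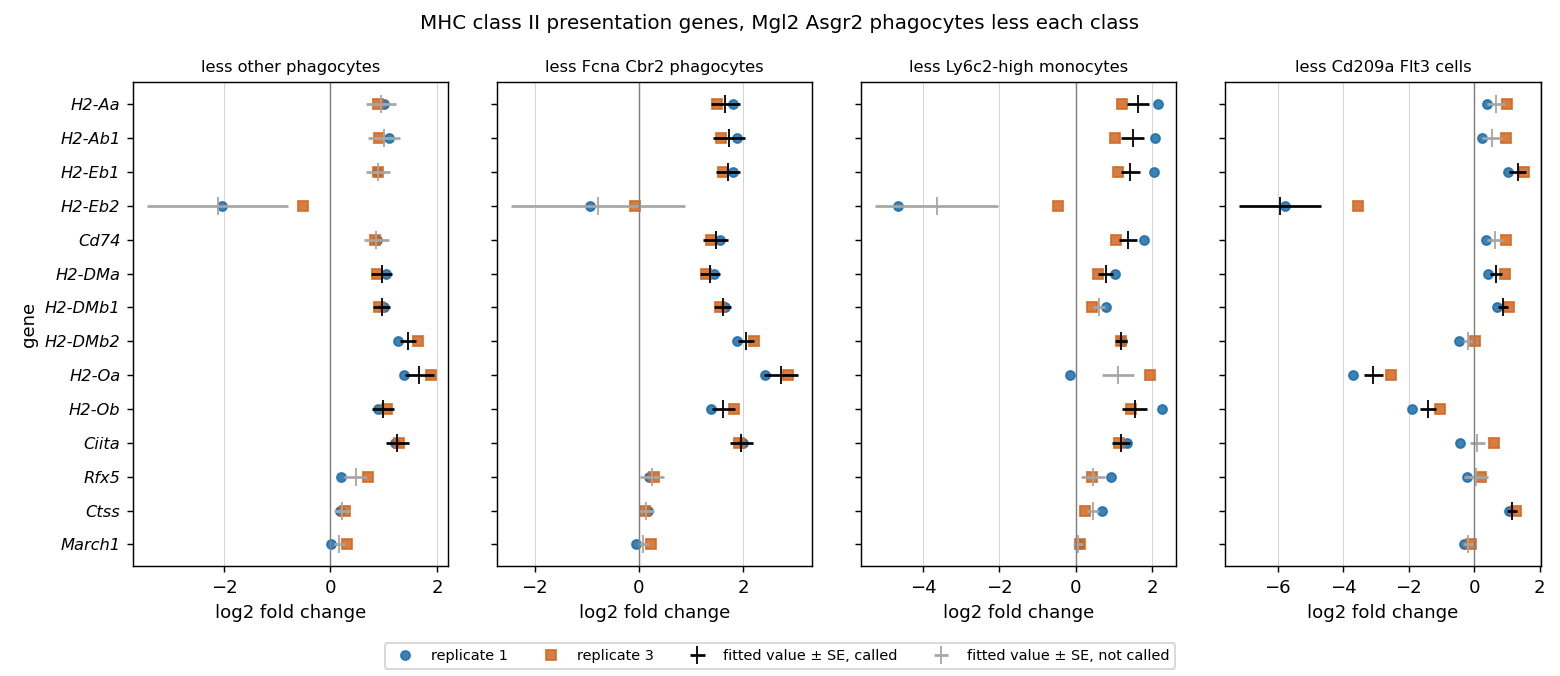
Log2 fold changes (x axis) of 14 MHC class II presentation genes (y axis) in Mgl2 Asgr2 phagocytes less each of 4 classes (panels). Circles are replicate 1, squares replicate 3, and bars are fitted values ± SE, black where called and grey where not; 6 genes were called higher in the first panel, 10 in the second and 8 in the last but one, while H2-Oa, H2-Ob and H2-Eb2 were lower than in cells with Cd209a and Flt3.

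C-type lectin receptors moved in both directions. Of 18 tested (leaving out Mgl2, Asgr2 and Cd209a), 3 rose and 3 fell, with a median log2 fold change of -0.05. Clec10a rose modestly, at 166 and 179 CPM against 119 and 108 CPM (log2 0.65 ± 0.14, adjusted p = 0.0429 by edgeR). Cd209d and Clec4b1 rose from low levels, to 13.2 and 9.30 CPM and to 6.35 and 15.1 CPM. Cd209d had a log2 fold change of 2.53, which turned to -0.35 without the Cd209a-positive members (adjusted p = 0.928), so its rise rests on them. Without those members 1 gene of the list was higher and 3 lower. Clec4d, Clec4e (which encodes Mincle) and the scavenger lectin gene Colec12 fell, by 1.95, 1.03 and 2.40 on the log2 scale. Mrc1, the mannose receptor, stood at 430 and 266 CPM in members and 430 and 214 CPM in other phagocytes (log2 0.20 ± 0.15, adjusted p = 0.65).

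Mgl2 is widely used as a marker of the response to interleukin-4. Of 27 other genes of that response, 4 rose (Ccl17, Pdcd1lg2, Irf4 and Batf3) and Cd36 fell, with a median of 0.10, and 3 rose and 1 fell without the Cd209a-positive members. Pdcd1lg2 encodes PD-L2, a ligand of the checkpoint receptor PD-1, and stood at 29.0 and 15.5 CPM in members against 8.65 and 2.95 CPM (log2 2.09 ± 0.18, adjusted p = 0.00179 by edgeR). Its groups did not overlap, and it was called without the Cd209a-positive members as well (log2 1.92, adjusted p = 0.006). Classical genes of the list did not pass. Arg1, which encodes arginase 1, stood at 263 and 125 CPM in members and 855 and 268 CPM in other phagocytes (log2 -1.36 ± 0.40, adjusted p = 0.136). Ear2 stood at 48.6 and 6.75 CPM against 5.06 and 3.98 CPM (log2 2.24 ± 0.58, adjusted p = 0.094). Retnla stood at 1.93 and 0 CPM in members and at 3.45 and 0.948 CPM in other phagocytes.

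Of 34 myeloid transcription factor genes, 6 rose and 3 fell, with a median of 0.01, and 3 rose and 1 fell without the Cd209a-positive members. The nuclear receptor genes Nr4a3 and Nr4a2, both rapidly induced by many stimuli, stood at 50.4 and 35.9 CPM against 18.8 and 11.8 CPM and at 188 and 134 CPM against 74.6 and 68.0 CPM. Their log2 fold changes were 1.55 ± 0.13 (adjusted p = 0.00133 by edgeR) and 1.19 ± 0.15 (adjusted p = 0.00602). Irf4 and Batf3, factors of DC development, rose by 1.16 and 1.11 on the log2 scale, and Nfil3 and Bhlhe40 by 0.85 and 0.55. Maf, a factor of mature macrophages, Bhlhe41 and Nr1h3, the liver X receptor alpha, fell by 0.69, 1.87 and 0.94. Of 19 stress genes that can follow tissue digestion, 0 were called against other phagocytes (4 at an unadjusted p of 0.05, and 1 by DESeq2), with a median of -0.04. Against Ly6c2-high monocytes 4 of the 19 were higher, against cells with Cd209a and Flt3 8 were higher, and none was lower in either. The part of digestion stress in the Nr4a differences was not tested.

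Receptors that guide leukocyte migration included 3 that rose (Ccr6, Ccr7 and Itgax) and S1pr1, which fell, out of 20 with a median of 0.26, and without the Cd209a-positive members 1 rose and 1 fell. Ccr6, the receptor for Ccl20, stood at 20.1 and 18.5 CPM in members against 2.60 and 1.18 CPM (log2 3.49 ± 0.27, adjusted p = 0.0012 by edgeR). It was detected in 25.2% and 24.7% of members, and at 13.7 and 13.8 CPM in those without Cd209a. Ccr7, which leads DCs to lymph nodes, stood at 1.66 and 17.5 CPM against 0.820 and 2.83 CPM, and was lower in members than in cells with Cd209a and Flt3 (log2 -2.04, adjusted p = 0.00717 by edgeR). Only 3 and 25 members had a Ccr7 UMI, and its call was lost without the Cd209a-positive members (adjusted p = 0.141). Ccr2 stood at 420 and 534 CPM against 202 and 398 CPM and did not pass (log2 0.78 ± 0.34, adjusted p = 0.34).

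No gene of fusion and bone resorption was called higher against other phagocytes, although Dcstamp was high. Of 19 tested, none rose and 3 fell (Atp6v0d2, Acp5 and Itgav), with a median of -0.39, and 1 fell without the Cd209a-positive members. Atp6v0d2, a subunit of the proton pump of osteoclasts, stood at 4.14 and 5.93 CPM in members against 33.1 and 39.3 CPM (log2 -2.90 ± 0.55, adjusted p = 0.031 by edgeR). DESeq2 did not call it (adjusted p = 0.451). Osteoclast markers summed to 477 and 342 CPM in members against 969 and 995 CPM, with Calcr and Oscar at 0 in members. Against phagocytes rich in Fcna and Cbr2, 1 of the 19 genes was higher (Src) and 2 were lower. Against Ly6c2-high monocytes 4 were higher and 1 lower, and against cells with Cd209a and Flt3 8 were higher and 2 lower.

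Matrix and coagulation genes gave 0 higher and 4 lower of 26 (among them F13a1, Thbs1 and Timp2; median -0.55). Monocyte genes gave 1 higher (Ly6a) and 3 lower (Vcan, F13a1 and Thbs1) of 20, with a median of -0.61. Lipid handling genes gave 0 higher and 3 lower of 21 (Cd36, Fabp4 and Nr1h3; median -0.31), and Apoe itself did not pass, at 20884 and 12412 CPM against 27992 and 14935 CPM (adjusted p = 0.322). Macrophage maturation and complement genes gave 1 higher (Cfb) and 3 lower (Folr2, C5ar1 and Maf) of 29, with a median of -0.25. C1qa stood at 6319 and 5116 CPM against 5447 and 4691 CPM (log2 0.21 ± 0.19, adjusted p = 0.723). Costimulation and checkpoint ligands gave 1 higher (Tnfsf13b, the B cell survival factor BAFF) and 1 lower (Cd276) of 14, with a median of 0.33. Chemokines gave Ccl17 higher and Pf4 lower of 21, inflammatory genes Il1r2 higher and Il18 lower of 20, and lysosomal genes Cstb lower of 20, with medians of -0.06, 0.01 and -0.13. Without the Cd209a-positive members only 2 matrix, 1 lipid handling and 1 maturation gene remained called lower, and no gene of these 3 lists was higher. Monocyte genes then gave 0 higher and 3 lower, costimulation ligands and chemokines 1 higher and 0 lower each, inflammatory genes 0 higher and 1 lower, and lysosomal genes no call.

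In 4 further lists no gene was called by edgeR against other phagocytes. Interferon-stimulated genes gave 0 of 23 (3 at an unadjusted p of 0.05, none by DESeq2, median 0.29), and Isg15 stood at 109 and 137 CPM against 92.6 and 88.6 CPM. Hypoxia and glycolysis genes gave 0 of 20 (7 unadjusted, 0 by DESeq2, median -0.35). Fc and pattern-recognition receptors gave 0 of 20 (6 unadjusted, 1 by DESeq2, median 0.04), and interleukin and growth factor receptors 0 of 24 (5 unadjusted, 0 by DESeq2, median 0.00).

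**Figure D5:**
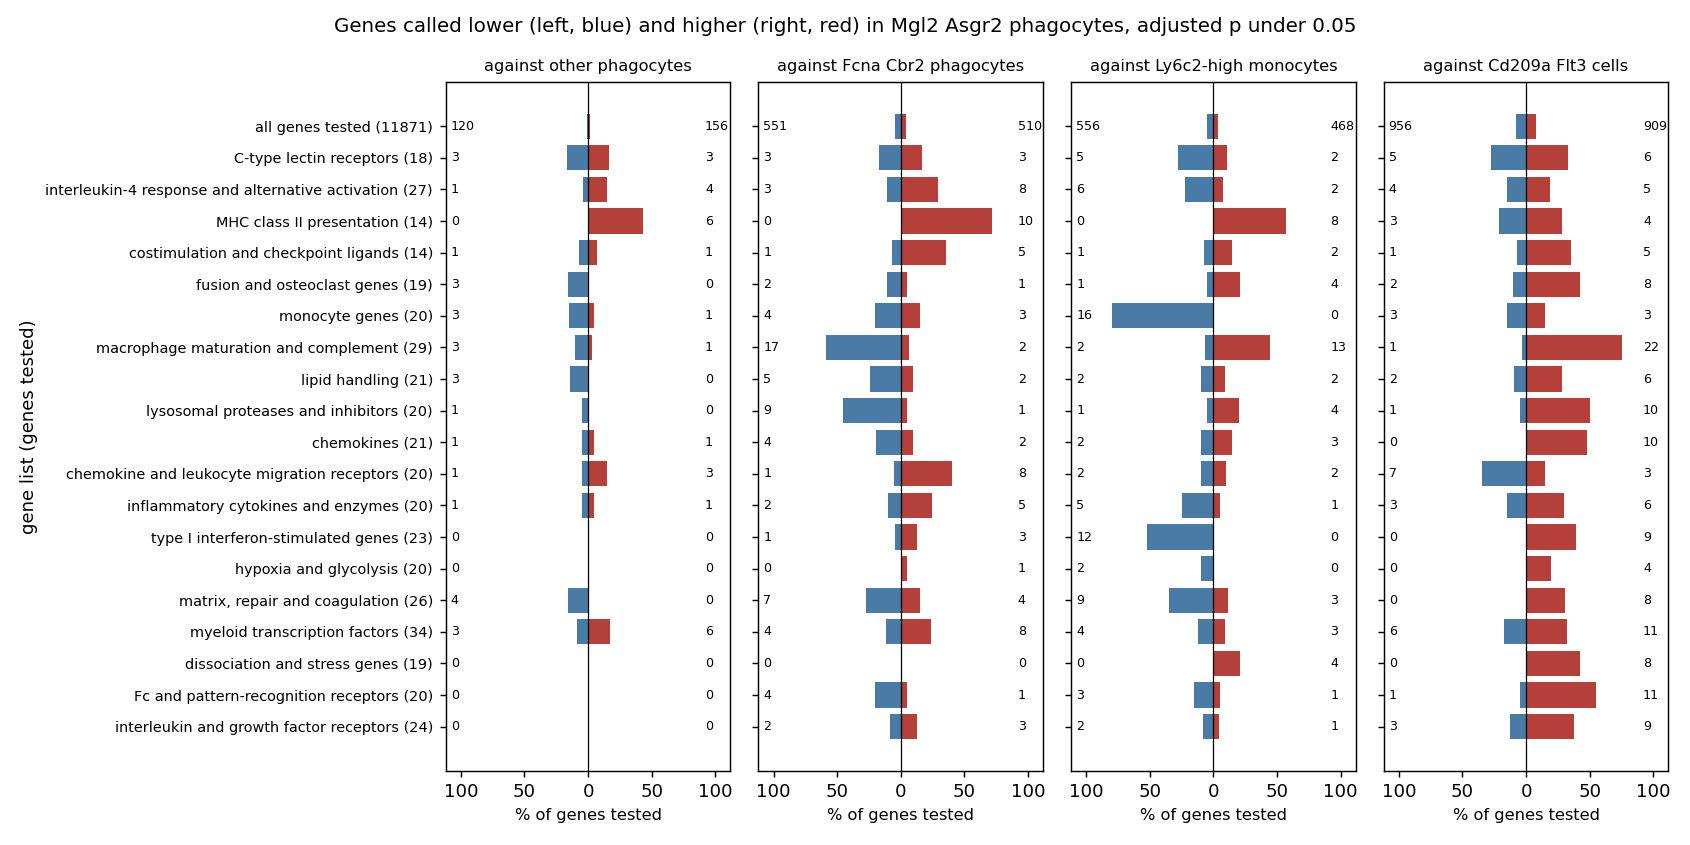
Percent of the tested genes of each list (y axis, with the number tested) called lower (blue, to the left) or higher (red, to the right) in Mgl2 Asgr2 phagocytes against each of 4 classes (panels), with the counts printed at the margins. Against other phagocytes the MHC class II list has 6 genes higher and 0 lower, and the top row gives the same counts over all 11871 genes.

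The second comparison was with the phagocytes rich in Fcna and Cbr2 (731 and 503 cells), genes known from resident tissue macrophages. Members had more of 10 of 14 class II genes, Ccr2, Il1b and Spp1, and less of Folr2, of 17 of 29 maturation and complement genes and of 9 of 20 lysosomal genes. Chemokines gave 2 higher and 4 lower of 21 with a median of -0.01, and migration receptors 8 higher and 1 lower of 20. By the same test 510 genes were higher in members (4.30% of genes tested) and 551 lower (4.64%), together 8.94%, and without the block 31 and 10. The class II list gave 10 higher and 0 lower of 14 with a median of 1.61, now including H2-Aa at 13071 and 13798 CPM against 3919 and 5075 CPM (log2 1.65 ± 0.28, adjusted p = 0.006 by edgeR). Ccr2 stood at 420 and 534 CPM against 67.5 and 214 CPM (log2 1.96 ± 0.35, adjusted p = 0.00822), without overlap. Il1b, the cytokine interleukin-1 beta, stood at 780 and 1071 CPM against 457 and 246 CPM (log2 1.46 ± 0.37, adjusted p = 0.04). Spp1, which encodes osteopontin, stood at 724 and 1303 CPM against 141 and 284 CPM (log2 2.33 ± 0.63, adjusted p = 0.0485). Largest among the higher genes were Ccl17, Klrb1b, Il1r2, the elastase gene Mmp12 and Mcemp1, with log2 fold changes of 4.21, 3.32, 2.95, 2.85 and 2.81.

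Macrophage maturation and complement genes were mostly lower than in that class: 17 of 29 fell and 2 rose (Axl and C3), with a median of -0.71. Folr2 stood at 18.6 and 11.8 CPM against 224 and 224 CPM (log2 -3.85 ± 0.22, adjusted p = 6.28e-05 by edgeR). Vsig4, a complement receptor of resident macrophages, had no UMI in members of either tumour and stood at 38.1 and 4.89 CPM in the other class. Cd163, a haemoglobin scavenger receptor, stood at 3.86 and 0.716 CPM against 51.5 and 4.83 CPM, with both classes far lower in replicate 3. Lysosomal genes gave 9 lower and 1 higher of 20, among them Ctsd, the protease cathepsin D, at 629 and 418 CPM against 2005 and 1723 CPM (log2 -1.79 ± 0.17, adjusted p = 0.000339). Ccl8 stood at 369 and 432 CPM against 1886 and 2133 CPM (log2 -2.27 ± 0.60, adjusted p = 0.0445) and Pf4 at 204 and 116 CPM against 680 and 439 CPM. Mrc1 fell by 0.83 on the log2 scale here. F13a1, C4b, Serpinb6a and Fxyd2 also stood among the largest decreases, at -3.34, -2.98, -2.90 and -2.68. The gate separates these classes on Fcna and Cbr2, and genes that vary with them can differ through the choice of cells.

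The third comparison, with Ly6c2-high monocytes (65 and 311 cells), was with cells of the kind known as blood-derived precursors of many macrophages. Members had more of the C1q genes and of 8 of 14 class II genes, and fewer transcripts of 16 of 20 monocyte and 12 of 23 interferon-stimulated genes. Maturation and complement genes gave 13 higher and 2 lower (C3 and C5ar1) of 29, with a median of 0.76. By the same test 468 genes were higher in members (3.94%) and 556 lower (4.68%), together 8.63%, and without the block 21 and 25. Of the 1024 genes called with the block, 1017 differed in the same direction in both tumours. C1qa stood at 6319 and 5116 CPM against 902 and 755 CPM (log2 2.87 ± 0.20, adjusted p = 9.81e-05 by edgeR), and C1qb and C1qc rose by 2.94 and 2.85. Acp5 rose by 2.68 and Ccl17 by 4.52. The class II list gave 8 higher and 0 lower of 14 with a median of 1.14, and Cd74 stood at 31865 and 39136 CPM against 10049 and 19633 CPM (log2 1.37 ± 0.24, adjusted p = 0.00904). The members thus lay above the monocytes in both tumours for each of these genes.

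Monocyte genes gave 0 higher and 16 lower of 20 with a median of -1.75. The comparison class was chosen by Ly6c2, itself a monocyte gene, and genes that vary with it can differ through the choice of cells. Those cells were also shallower than members, with medians of 13104 and 14671 UMIs per cell. Matching them to members by depth left 0 cells in replicate 1 and 32 in replicate 3, so no depth-matched comparison was made. Plac8 stood at 25.9 and 68.4 CPM in members against 868 and 1171 CPM (log2 -4.54 ± 0.30, adjusted p = 8.30e-05 by edgeR). Vcan, the matrix proteoglycan versican, stood at 3.86 and 3.58 CPM against 203 and 128 CPM (log2 -5.32 ± 0.37, adjusted p = 9.81e-05). Chil3, a chitinase-like protein of monocytes and alternatively activated macrophages, stood at 4.28 and 4.19 CPM against 480 and 140 CPM. Interferon-stimulated genes gave 0 higher and 12 lower of 23 with a median of -1.15, with Irf7 at 57.1 and 72.3 CPM against 184 and 234 CPM (log2 -1.60 ± 0.20, adjusted p = 0.00203). Of those 12 genes, 11 differed in the same direction in both tumours. Igkc, Slpi and Dmkn were also named by size among the lower genes. A single Ly6c2-high cell of replicate 1 held 16142 of its class's 16143 Igkc UMIs and 598 of its 657 Slpi UMIs. Without the cells that have at least 10 Igkc UMIs the counts were 473 and 564.

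The fourth comparison was with cells that have at least 3 Cd209a UMIs and a Flt3 UMI (23 and 104 cells). The class is mixed: Siglech, a gene of plasmacytoid DCs, had a UMI in 4 of 23 and 66 of 104 of its cells, and plasmacytoid DC markers summed to 870 and 3930 CPM in it, against 2.35 and 3.37 CPM in members. It is therefore called by its genes and not as a DC type. Members were higher in 909 genes (7.66%) and lower in 956 (8.05%), together 15.7%. With the class redefined as Cd209a-positive Flt3-positive cells without Siglech (30 and 46 cells, chosen after the data were seen) these were 297 and 440. For the class of 23 and 104 cells without the block the counts were 272 and 314. Of the 1865 genes called against that class with the block, 1830 differed in the same direction in both tumours. The lower genes named by size were Siglech, Klk1, Klk1b27, Iglc2 and Cd8b1, each at most 0.307 CPM in members and from 26.3 to 835 CPM in that class. Under the narrower definition that class has no Siglech UMI by the choice of cells, so Siglech cannot be lower in members. Klk1 (log2 4.76 ± 5.43 SE) and Iglc2 were no longer lower either.

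Maturation and complement genes gave 22 higher and 1 lower of 29 with a median of 1.95, and 16 higher and 2 lower of 30 under the narrower definition. Apoe stood at 20884 and 12412 CPM against 3866 and 2703 CPM (log2 2.43 ± 0.14, adjusted p = 1.14e-05 by edgeR). C3 and Tmem119 rose by 2.95 and 2.83, and C1qa, C1qc and Zmynd15 by 2.79, 2.81 and 2.75. Both tumours showed these increases without overlap.

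For the type 2 DC markers Zbtb46, Irf4 and Clec10a and the class II gene H2-Oa, the members stood between other phagocytes and the Cd209a Flt3 cells. These genes are examples: Itgax and H2-DMb2, of the same marker list, were not called between members and the Cd209a Flt3 cells. The values are those of the mixed class of Cd209a Flt3 cells, not of the narrower one. Zbtb46 was at 1.66 and 1.53 CPM in members, 0.735 and 0.521 CPM in other phagocytes and 17.5 and 14.1 CPM in those cells (log2 -3.18 ± 0.38, adjusted p = 0.000601 by edgeR). It was not called between members and other phagocytes. Members with a Cd209a UMI had 5.75 and 4.87 CPM of Zbtb46, and members without one 0.967 and 1.05 CPM. Irf4 was at 7.18 and 7.57 CPM, 3.50 and 3.32 CPM and 40.3 and 32.2 CPM (log2 -2.12 ± 0.24, adjusted p = 0.000501). Members with a Cd209a UMI had 10.5 and 18.7 CPM of Irf4, and members without one 6.61 and 5.97 CPM. H2-Oa was at 20.4 and 20.3 CPM, 8.03 and 5.56 CPM and 282 and 132 CPM (log2 -3.08 ± 0.29, adjusted p = 0.000167). Clec10a showed the same order, at -1.46 (log2) against the Cd209a Flt3 cells. The class II list was split here, with 4 higher (H2-Eb1, Ctss, H2-DMb1 and H2-DMa) and 3 lower (H2-Eb2, H2-Oa and H2-Ob) of 14.

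Over single phagocytes of the shared gate, the genes most like the sum of Mgl2 and Asgr2 were class II genes. Spearman correlations were computed on counts thinned to 5000 UMIs (2352 cells of replicate 1 and 3442 of replicate 3, members included) and ranked by the lower of both tumours over 4403 genes. These are descriptions, since cells of a tumour share a library. Cd74 led with 0.576 and 0.443, followed by H2-Aa (0.577 and 0.442) and H2-Ab1 (0.602 and 0.428). Tmem176a and Tmem176b, neighbouring genes for intracellular ion channels of DCs and macrophages, had 0.407 and 0.338, and 0.414 and 0.320. H2-DMb1, H2-DMa, H2-Eb1, H2-DMb2 and Plbd1 completed the 10, and the median over all genes was -0.02. In members Tmem176b stood at 549 and 677 CPM, against 275 and 370 CPM in other phagocytes.

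By the ratio of variance to mean, members varied most among themselves in Apoe and in chemokine genes. Variance-to-mean ratios were ranked by the lower of both tumours over 1043 genes with a mean of at least 0.5 UMIs per thinned member. Apoe led with 62.9 and 111, beside a median ratio of 1.09, and had medians of 99 and 33 UMIs per thinned member. The ratio was not adjusted for level, and Apoe had means of 107 and 66.9 UMIs. In replicate 3 alone Ccl4 had a higher ratio, at 134, and a single member held 50.7% of its UMIs there. Ccl8, Cxcl9, Cxcl2, Ccl12 and Cxcl10 followed. Cxcl9, a ligand of the T cell receptor CXCR3, had a UMI in 43 of 317 and 104 of 332 members, and its 5 highest cells held 60.6% and 51.9% of its UMIs. Cd74 (16.0 and 18.6) and H2-Aa (9.34 and 7.40) also had ratios above that median, and H2-Aa had a UMI in 98.7% and 100% of thinned members. H2-Aa was thus detected in nearly all members, while most Ccl17 and Cxcl9 UMIs came from a few.

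The spatial codes took no part in the gate. The median log2 ratio of ZC1 to ZC5 UMIs over cells with at least 10 of them was -0.28 in members of replicate 1 (317 cells) and -1.74 in those of replicate 3 (331 cells). It was -0.28 and -1.68 in other phagocytes, so the difference was -0.0088 and -0.065, a mean of -0.037 ± 0.040 (SD, n = 2). The SD over single members was 0.869 and 0.638, and the difference was not tested. Members lay 1.15 below the Ly6c2-high monocytes in replicate 1 and 0.157 below in replicate 3. Transcripts of the tumour reporters were near 0 in members (YFP 0.690 and 0 CPM, RFP 0.690 and 0.204 CPM).

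Between the tumours, the members differed by at least 2-fold in 83 of 2825 genes with at least 50 CPM: 35 were higher in replicate 3 (1.24%) and 48 in replicate 1 (1.70%). With 1 sample a side this has no test. Mmp13, a collagenase gene, stood at 50.5 and 3.17 CPM in members and 43.8 and 2.12 CPM in other phagocytes. Hspa1a, a heat shock gene, stood at 12.4 and 107 CPM against 29.1 and 145 CPM. Both genes differed between tumours in the same direction in both classes.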

How the data were processed

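The deposited count matrices hold whole-number counts of UMIs per gene or spatial code and barcode, without normalisation, made by the authors with Cell Ranger 4.0 and the mm10 build, per the submitters' processing notes. Aligner settings and the annotation were not given in the sources used here. Barcodes with at least 1000 gene UMIs, 500 genes and at most 10% mitochondrial UMIs were kept. Cells were placed in 5 classes by raw UMIs of the gate genes: members, other phagocytes, Fcna Cbr2 phagocytes (at least 3 UMIs of both together), Ly6c2-high monocytes (at least 3 Ly6c2 UMIs) and Cd209a Flt3 cells. UMIs were summed per class and tumour into 10 sums and fitted with edgeR 4.0.16 (R 4.3.3, TMM factors, filterByExpr, tumour as block, 4 residual degrees of freedom). The tumour block follows from the design, since every class comes from the same tumours; correlations of the tumour difference between classes ran from 0.151 to 0.839. The 11 genes of the class gates and Dcstamp were not tested. The 4 comparisons share the members' sums. The script was tested on simulated data.

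The members and gene lists were chosen with earlier results of these data known. Named genes were the 12 largest increases and 10 largest decreases of the first comparison and 5 each of the others (adjusted p under 0.05, same direction in both tumours, at least 50 CPM in the higher class), with list members. Alternatives were DESeq2 1.42.0, RLE factors, other filters, gates, depth matching, doublet removal with scanpy 1.11.5, subtraction of 10% free RNA (profile of barcodes with 10 to 100 UMIs), no block and each tumour alone. Thinning drew 5000 UMIs per cell. Poisson and binomial intervals and floors of 3 counts cover counting error only. Clec6a, Clec7a, Ifi30, Mx2 and Ero1a are not analysed here.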

Additional observations from a re-analysis of the deposited data

How the results depend on the processing

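Of 144 genes and comparisons followed, 133 passed the threshold, and RLE factors, a minimum of 5000 UMIs and the fit of only the 2 classes compared kept all 133 calls. Other settings cost calls: 5 under DESeq2, 39 with free RNA subtracted, 31 without members that have a Cd209a UMI (Cd209d, whose direction turned, was lost besides, leaving 101) and 105 without the replicate block. Most of these losses with free RNA subtracted fell in the first comparison, where 33 of 57 followed calls were lost and 24 kept. There 31 of the 57 were kept without members that have a Cd209a UMI, and none without the block. Without the replicate block the 4 comparisons called 0, 41, 46 and 586 genes, in the order other phagocytes, Fcna Cbr2 phagocytes, Ly6c2-high monocytes and Cd209a Flt3 cells. In the first comparison (276 genes) the count was 1004 with no filter on low counts (40.4% of them higher, beside 56.5%), 1514 with only the 2 classes, 671 at a mitochondrial limit of 5%, 551 with gates on thinned counts, 440 with at least 5 Mgl2 and 2 Asgr2 UMIs, 1317 with depth-matched cells, 114 with free RNA subtracted, 515 against cells without Mgl2 and Asgr2, 175 without members with 3 UMIs of Cd209a or Ly6c2 and 111 without members with a Cd209a UMI. The last 2 were chosen after seeing the data. Without the filter the median over all genes was -0.10. Against Fcna Cbr2 phagocytes (1061) it was 1744, 2702, 1635, 1656 and 2318 with no filter, only 2 classes, the 5% limit, thinned gates and depth matching. Against Ly6c2-high monocytes (1024) it was 1842 with no filter and 1587 at the 5% limit. Against Cd209a Flt3 cells (1865) it was 1003 with only 2 classes and 737 with cells without Siglech, also chosen after seeing the data. The shares of members were 1.55% and 2.14% with thinned gates and 2.52% and 4.81% with the stricter gate. Directions turned for Cd209d (-0.35, no Cd209a UMI) and for the uncalled C1qa (-0.077) and Isg15 (-0.13) with thinned gates. They also turned for Iglc2 (0.094) and Klk1 (4.76) without Siglech-positive cells, and the cause was not tested. Siglech turned as well (5.46), which the choice of those cells fixed. A single tumour gives no test, so gene counts could not be given without either; the shares ran from 4.93% to 6.58% and 9.41% to 12.6%, and the code difference from -0.065 to -0.0088.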
